A study of Drosophila melanogaster with 3 samples.

Results

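The antimicrobial peptide genes AttA, AttB, AttC, CecA1, CecC, DptA, DptB, Dro, Mtk and Drs of Drosophila melanogaster were followed across 3 adult tissues. They were chosen by name, and every probe whose locus tag belongs to one of them was taken. This gave 14 probes for 10 genes, out of 32162 probes and 13127 genes on the array. AttA has 3 probes, CecC and DptB have 2 each, and the other 7 genes have 1. Of the 10 genes, 7 lie on chromosome arm 2R, 2 on 3R (CecA1 and CecC) and 1 on 3L (Drs). In the reference annotation AttA and AttB neighbor Dro, and DptA neighbors DptB.

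Antimicrobial peptides are short secreted peptides that attack the membranes or cell walls of microbes. In flies their genes are switched on through the Imd and Toll pathways, which are triggered by bacterial peptidoglycan and fungal cell wall and end in the NF-kappaB factors Relish, Dif and Dorsal. The fat body is the main source in a systemic infection, and gut, trachea and reproductive tract can make some of the peptides locally.

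RNA came from the apical tip of the testis, from male thorax and from female thorax of wild-type OreR flies, and each tissue was hybridized to 4 arrays. The methods describe the RNA on each array as an independent pool of extractions from many mated flies, raised on cornmeal medium at room temperature, and no source names an infection. The series record gives an age of 2 to 4 days for the testes, and the methods give a wider span for all flies. Tips were freed of the testis sheath and hold germline together with somatic cells, so they are a mixed tissue, as are thoraxes cut free of head, abdomen, legs and wings. The arrays sat on 3 slides. Slide A held replicates 1 and 2 of both thoraxes, slide B joined tip replicates 1 and 2 to male thorax replicates 3 and 4, and tip replicates 3 and 4 shared slide C with female thorax replicates 3 and 4.

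All levels below are log2 signals of a probe relative to the 75th percentile of its own array, called scaled levels. A level of one gene cannot be set against that of another, because probes differ in how brightly they bind. A signal well above background was seen for 57.3% to 74.8% of probes on the tip arrays, 70.9% to 74.4% on those of male thorax and 64.3% to 72.6% on those of female thorax. Tip replicate 1 stood apart, with a Pearson r of 0.809 to 0.812 with the other 3 tip arrays, which correlated at 0.991 to 0.996 with each other. Each of the 5 germline markers on the array was higher in tips than in either thorax, and each of the 5 flight muscle markers was lower, so the markers match the tissue labels. Of 5 markers of the somatic cells of the testis, 2 were higher in tips, 1 was lower and 2 did not pass the test in both comparisons. Markers of the tissues known to make the peptides were lower in tips than in male and in female thorax for 6 of 6 hemocyte, 6 of 6 gut and 2 of 2 tracheal genes, and for 6 of 7 and 7 of 7 fat body genes. Without scaling 4 hemocyte and 5 gut genes were still called lower. The summed scaled level of apolpp, Lsp2, to and fit, which mark the fat body, was 3.43 in tip replicate 1 and 1.88 to 2.16 in the other 3 tips, against 7.28 to 7.73 in male and 7.66 to 8.25 in female thorax. Of all 7 fat body markers, Yp1 alone was not well above background on any tip array, and of 6 hemocyte markers, He alone was not. In such bulk samples, fewer cells of a type and less RNA per cell cannot be told apart.

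Tissue differences were tested with limma over 24878 probes that reached a mean log2 signal of 7 before scaling in at least 1 tissue. Dro did not reach it and was not tested. CecC reached it through its thorax levels only, so the minimum itself favors a lower tip level for it, and the counts below include it. The other 8 genes reached it in every tissue. In testis tips, 7 of the 9 tested genes were lower than in male thorax. These were CecC and, among the 8 that reached the minimum in every tissue, Drs, Mtk, DptB, AttA, AttB and AttC. CecA1 was higher and DptA did not pass the test. Among all tested probes, 76.5% were called, 47.2% lower in tips and 29.3% higher, so a lower level was the common direction. Against female thorax the split was the same, with 7 lower, 1 higher (CecA1) and 1 not called (DptA), beside 76.3% called among all probes, 47.4% lower and 28.8% higher. The median change of the tested genes was -4.72 against male and -6.00 against female thorax, and that of all tested probes was -1.05 in both. The arrays did not overlap for 7 lower and 1 higher gene against male thorax, beside 45.4% and 26.8% of all probes, and for 7 lower genes and 0 higher ones against female thorax, beside 45.9% and 26.5%. The 2 comparisons share the tip arrays and are not independent of each other.

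**Figure D1:**
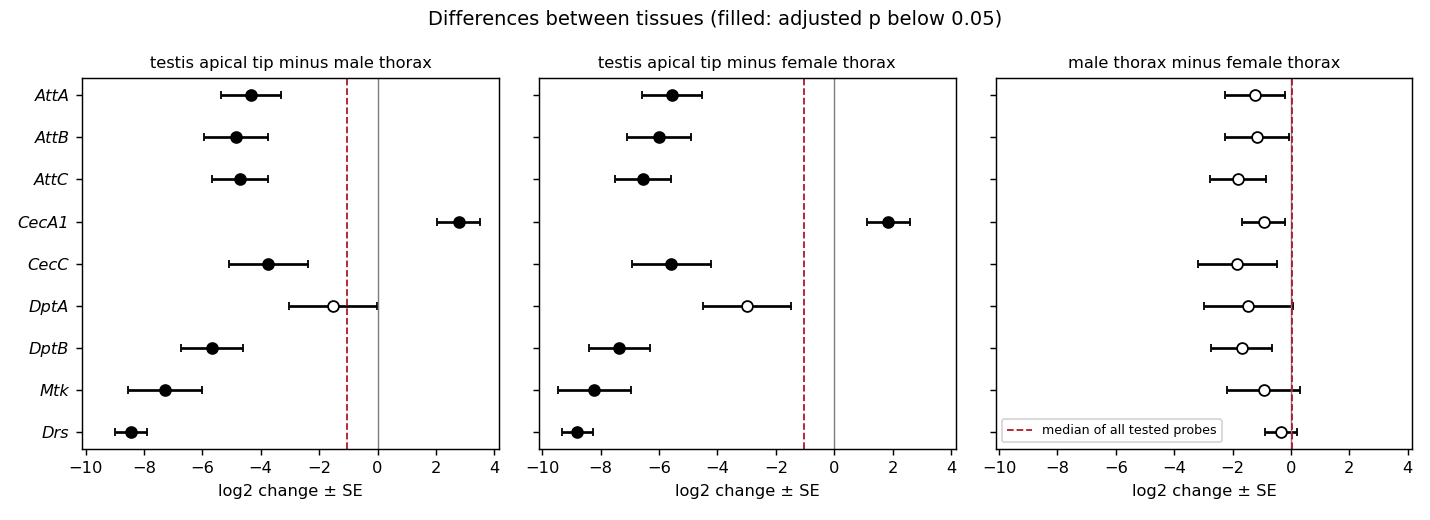
Log2 change ± SE of the 9 tested genes in testis apical tip minus male thorax, tip minus female thorax and male minus female thorax, with filled points where the adjusted p was below 0.05. Most genes lie left of the dashed line, the median of all tested probes at -1.05 in both tip comparisons, CecA1 lies to the right, and no thorax difference is filled.

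The size of these changes hangs on how the arrays were scaled, since the 75th percentile of the unscaled log2 signal was 13.5 to 13.8 on tip arrays, 10.9 to 11.7 on male and 10.5 to 11.2 on female thorax arrays. With no scaling the median change of all probes was 1.29 against male and 1.60 against female thorax, and the calls against male thorax were 11980 higher and 6097 lower, in place of 7296 higher and 11747 lower. Quantile normalization gave 8584 higher and 10206 lower. Relative to the median of all tested probes, the changes are equal with and without scaling by construction, since scaling shifts all probes of an array alike. Against male thorax the value relative to the median was -7.40 for Drs, -6.22 for Mtk, -0.47 for DptA and 3.83 for CecA1. Quantile normalization, which can change it, gave -7.07, -6.17, -0.93 and 3.31, and -2.02 in place of -2.69 for CecC.

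Drosomycin (Drs, CG10810) is a cysteine-rich peptide that acts on filamentous fungi and is a classical readout of Toll signaling. Its processed signal was 5084, 865, 1529 and 1686 in the 4 testis tips, against 163200, 232600, 75980 and 89460 in male thorax and 154400, 205100, 91530 and 99330 in female thorax. On the scaled log2 scale the tips averaged -2.82 ± 1.03, male thorax 5.63 ± 0.42 and female thorax 5.98 ± 0.84 (SD, n = 4 each). Every tip lay below every thorax, with a change of -8.45 ± 0.54 (SE) against male thorax (adjusted p = 5.1e-08) and -8.80 ± 0.54 against female thorax (adjusted p = 3.61e-08). Within the slide that held both tissues, the change was -7.84 against male and -8.46 against female thorax.

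Metchnikowin (Mtk, CG8175), a proline-rich peptide active against fungi and Gram-positive bacteria, showed the next widest gap when each gene was taken at its brightest probe. Its scaled levels were -2.20, -5.67, -5.76 and -5.72 in tips, against 0.89, 4.79, 0.61 and 3.46 in male thorax and 0.44, 5.16, 3.58 and 4.32 in female thorax. Tip replicate 1 was the highest tip, and each thorax group held low and high pools, but no tip reached a thorax level. The change was -7.28 ± 1.26 (SE) against male thorax (adjusted p = 0.000236) and -8.22 ± 1.26 against female thorax (adjusted p = 9.06e-05). Without tip replicate 1 it was -8.16 and -9.09.

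The diptericins are glycine-rich peptides against Gram-negative bacteria and are readouts of the Imd pathway. DptB passed the test and DptA did not, and the difference between them was not tested. DptB (CG10794) had scaled levels of -5.22, -4.24, -4.08 and -4.25 in tips, against -0.56, 3.18, -0.04 and 2.30 in male thorax and -0.11, 4.79, 3.71 and 3.24 in female thorax. It changed by -5.67 ± 1.05 (SE) against male thorax (adjusted p = 0.000414) and -7.36 ± 1.05 against female thorax (adjusted p = 5.22e-05). Its second probe gave -7.57 and -9.14, on which tips and thoraxes did not overlap either.

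DptA (CG12763) had scaled levels of 0.88, -1.13, -0.92 and -1.26 in tips, against -1.85, 2.64, -1.08 and 3.96 in male thorax and -1.73, 4.45, 3.20 and 3.59 in female thorax. All 4 tips were well above background, and they sat within the range of the thorax pools of each sex. The change was -1.52 ± 1.52 (SE) against male thorax (adjusted p = 0.377) and -2.98 ± 1.52 against female thorax (adjusted p = 0.094). Without scaling the value against male thorax turned to 0.82 (adjusted p = 0.626). Against female thorax, leaving out female replicate 1 gave -4.35 (adjusted p = 0.0107).

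The attacins are longer glycine-rich peptides that also act on Gram-negative bacteria. AttC (CG4740) had closely grouped scaled levels of -3.09, -3.32, -3.00 and -2.90 in tips, against 0.30, 3.59, -0.02 and 2.70 in male thorax and 0.94, 5.31, 4.06 and 3.53 in female thorax. The lowest thorax pool of either sex lay above the highest tip. The change was -4.72 ± 0.96 (SE) against male thorax (adjusted p = 0.000792) and -6.54 ± 0.96 against female thorax (adjusted p = 6.32e-05).

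AttA (CG10146) and AttB (CG18372) are near-identical copies, and whether a probe for one also binds the other was not tested. AttB was near background in tips, at -5.76, -6.04, -6.23 and -6.39, against -2.59, 0.59, -2.22 and -0.82 in male thorax and -3.82, 1.79, 1.42 and 0.19 in female thorax. Its tip signal was well above background on 3 of 4 arrays. The change was -4.84 (adjusted p = 0.00179) against male and -6.00 (adjusted p = 0.000384) against female thorax, with an SE of 1.10 each.

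The brightest AttA probe read -6.36, -3.06, -2.05 and -2.08 in tips, against 0.18, 2.51, 0.02 and 1.04 in male thorax and 0.17, 3.65, 2.79 and 2.04 in female thorax. It was well above background on all 4 tip arrays. It gave a change of -4.32 ± 1.03 (SE) against male thorax (adjusted p = 0.00244) and -5.55 ± 1.03 against female thorax (adjusted p = 0.000415). The other 2 AttA probes disagreed with it in tips, where neither was well above background on any array. Taking the lowest detected signal of each tip array as a bound, tips were at least 158-fold and 148-fold lower than male thorax on these probes, and at least 384-fold and 359-fold lower than female thorax. Without scaling, the change against male thorax was -1.98 for AttA (adjusted p = 0.099) and -2.50 for AttB (adjusted p = 0.0508), so neither call held.

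Cecropins are helical peptides that open bacterial membranes. CecA1 (CG1365) was the only tested gene of the 10 that was higher in the testis tip. Its scaled levels were 2.42, 0.15, 0.36 and 0.29 in tips, against -2.57, -0.61, -2.53 and -2.16 in male thorax and -2.73, 0.38, -0.43 and -1.37 in female thorax. Every tip exceeded every male thorax, while female replicate 2 exceeded 3 of the 4 tips. CecA1 was higher by 2.77 ± 0.74 (SE), or 6.84-fold, against male thorax (adjusted p = 0.00482) and by 1.84 ± 0.74, or 3.59-fold, against female thorax (adjusted p = 0.0391). Without tip replicate 1 the change was 2.24 against male thorax (adjusted p = 0.0114) but 1.30 against female thorax (adjusted p = 0.101).

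The call of CecA1 against female thorax was also lost on quantile normalization (adjusted p = 0.0529), with slide as a block (1.89, adjusted p = 0.0948) and within slide C (1.23, adjusted p = 0.366). It was lost without female replicate 1 (1.28, adjusted p = 0.119), female replicate 4 (1.73, adjusted p = 0.0826) or male replicate 4 (adjusted p = 0.0502). Against male thorax it held under every alternative that has a test.

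CecC (CG1373) went the other way. Its scaled levels were -6.27, -6.82, -8.77 and -7.06 in tips, against -6.03, -0.65, -4.06 and -3.20 in male thorax and -5.39, 0.66, -0.20 and -1.64 in female thorax. On this brightest probe only 1 tip array (replicate 2) but 3 arrays of each thorax were well above background. The change was -5.59 ± 1.35 (SE) against female thorax (adjusted p = 0.0027) and -3.75 ± 1.35 against male thorax (adjusted p = 0.025). Its second probe gave -5.40 (adjusted p = 0.00863) against female and -4.02 (adjusted p = 0.0368) against male thorax, and on it the tips overlapped with both thoraxes, since replicate 1 was at -6.49 in tips, -7.49 in male and -7.23 in female thorax. Without scaling, the brightest probe gave -2.94 (adjusted p = 0.0576) against female and -1.40 (adjusted p = 0.345) against male thorax, and neither call held. The male call was also lost on quantile normalization (-2.38, adjusted p = 0.185), without male replicate 2 (-2.80, adjusted p = 0.0769), male replicate 4 (adjusted p = 0.0512) or tip replicate 3 (-3.23, adjusted p = 0.0683), with slide as a block (adjusted p = 0.0634) and within slide B (-2.91, adjusted p = 0.254). Cecropin genes are close copies of each other, and binding of their RNA to each other's probes was not tested.

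Drosocin (Dro, CG10816) is a proline-rich peptide against Gram-negative bacteria and was not well above background on any tip array. It was well above background on 2 of 4 male thorax arrays and 3 of 4 female thorax arrays. Its scaled levels were -8.74, -9.65, -9.00 and -8.63 in tips, against -6.38, -4.93, -8.31 and -8.04 in male thorax and -7.69, -3.98, -5.42 and -5.87 in female thorax, with replicate 2 the highest pool of each sex. Set against the lowest detected signal of the tip arrays, mean levels were 1.46-fold higher in male and 3.29-fold higher in female thorax. These means include thorax arrays that were not well above background, so they give no firm bound. Before scaling the mean log2 signal was 4.66 in tips, 4.41 in male and 5.27 in female thorax, so the direction against male thorax rests on the scaling.

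**Figure D2:**
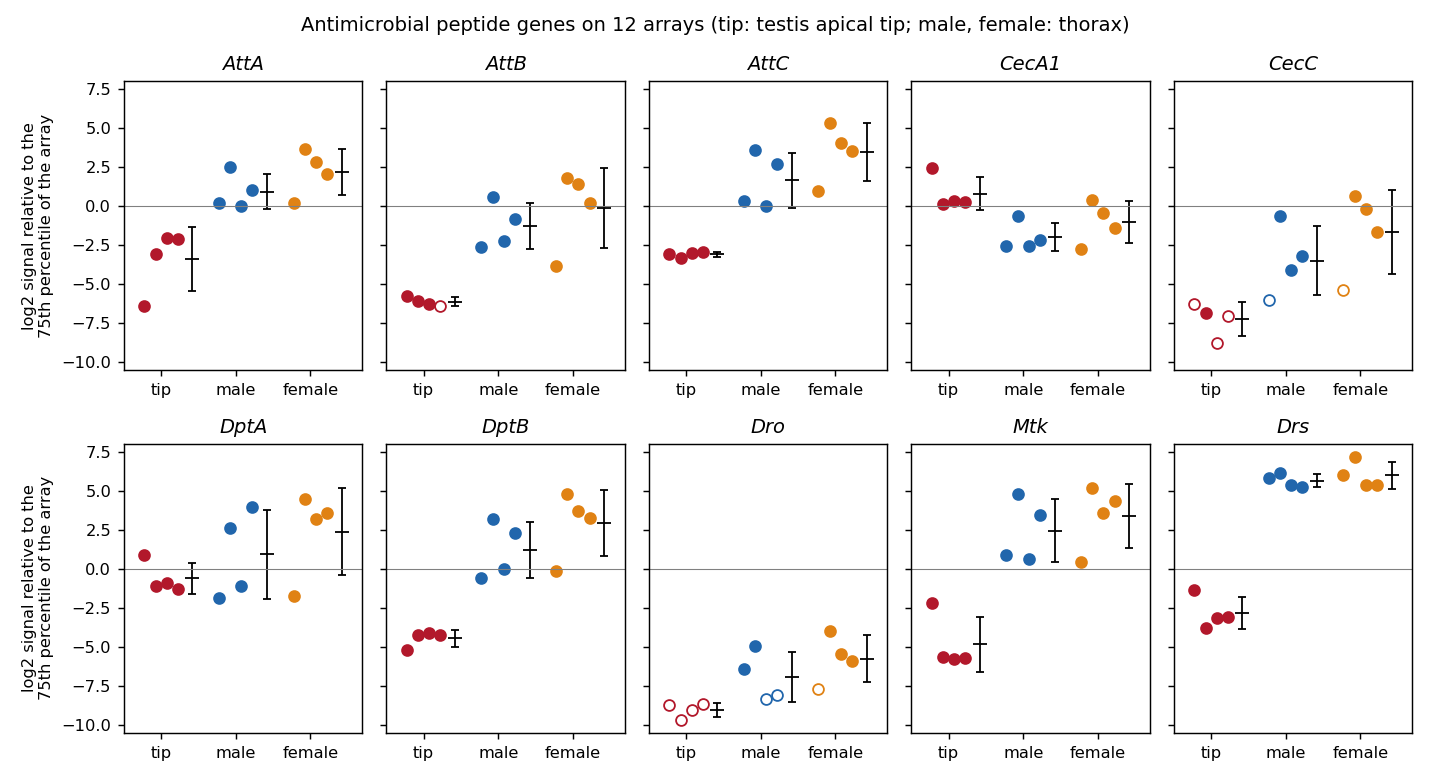
Scaled log2 signal of each gene on the 12 arrays, with testis apical tips in red, male thorax in blue and female thorax in orange, replicates 1 to 4 from left to right, open circles where the probe was not well above background, and black marks for mean ± SD. Tips lie below both thoraxes for Drs, Mtk, DptB, AttA, AttB and AttC, CecA1 is higher in tips than in male thorax, and the thorax pools of most genes are widely spread.

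Male and female thorax were not told apart by any of these genes. All 9 tested genes had a negative value for male minus female thorax, with AttC having the lowest p, at -1.82 ± 0.96 (SE, unadjusted p = 0.0845, adjusted p = 0.774) and Drs the smallest change, at -0.35 ± 0.54. None passed the test, none had an unadjusted p below 0.05, and the arrays of the sexes overlapped for every gene. Among all tested probes 0.523% were called, 0.37% lower in males, and 1896 of 24878 had an unadjusted p below 0.05. The arrays of the sexes did not overlap for 7.83% of probes that were higher and 6.43% that were lower in males. The sign was not stable either, since within slide A AttB read 0.012 and Mtk 0.040, and Drs read 0.046 without female replicate 2.

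Within a sex, thorax pools differed widely in these genes. The pooled SD within a sex had a median of 1.89 log2 units over the 10 genes, while the median over 19131 probes well above background on all 8 thorax arrays was 0.31, with a 95th percentile of 1.10. DptA had an SD of 2.80, and 0.131% of those probes had a larger one. AttB had 2.08, Mtk 2.04, DptB 1.96, AttC 1.81, AttA 1.32 and CecA1 1.15. Drs was the exception at 0.67, which 16.9% of the probes exceeded. In linear terms the highest and lowest male pools differed 56.1-fold for DptA and 1.88-fold for Drs, and the female pools 72.5-fold and 3.47-fold. The median SD over the 10 genes was 1.35 without female replicate 1, and it stayed between 1.75 and 2.12 when any other thorax array was left out.

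**Figure D3:**
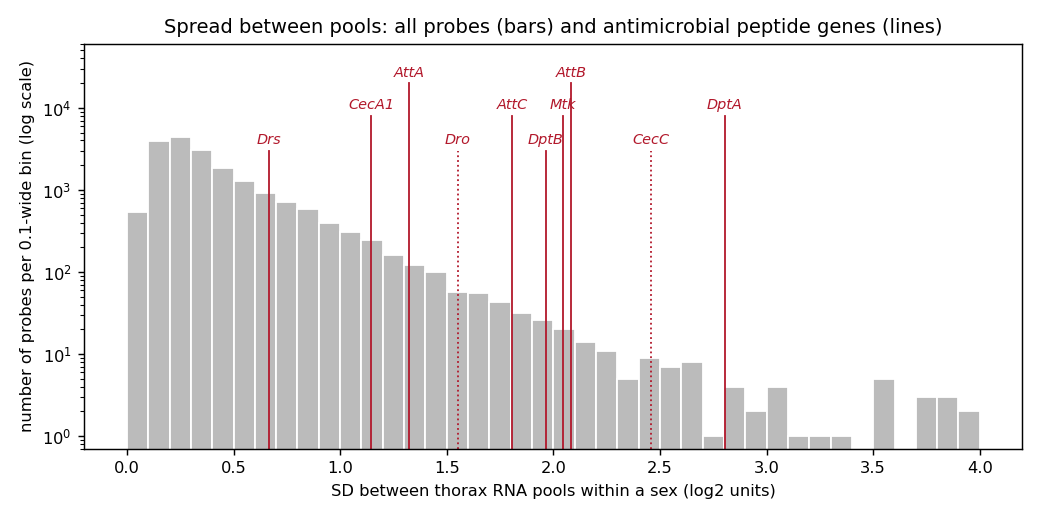
Number of probes (log scale) by their SD between thorax RNA pools within a sex, over 19131 probes, with red lines at the 10 genes, dotted for CecC and Dro, which were not well above background on all 8 arrays. The genes lie in the right tail, from 1.15 for CecA1 to 2.80 for DptA, apart from Drs at 0.67.

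The pools can be compared with no change of slide, tissue or sex. On slide A, male replicate 2 exceeded male replicate 1 for 10 of 10 genes, by a median of 3.23. For 9 of the 10 the rise was above 1, against 1.47% of all probes, whose median was -0.021. All probes in the thorax pairs are the 19131 well above background on all 8 thorax arrays, a rule that CecC and Dro did not meet. Female replicate 2 exceeded female replicate 1 for 10 of 10 genes as well, all by more than 1, with a median of 4.55, against 1.76% of all probes. The gap was 72.5-fold for DptA and 2.23-fold for Drs. On slide B, male replicate 4 exceeded male replicate 3 for 9 of 10 genes by a median of 1.21, with 6 above 1, against 3.16% of all probes. The female pair on slide C was closer, with a median of -0.50 for replicate 4 minus replicate 3. In it 2 genes differed by more than 1, both lower, against 1.32% of all probes that fell by more than 1. On slide C, replicate 4 minus replicate 3 of the tip had a median of 0.0012, with CecC alone more than 1 apart (1.71). CecC was well above background on neither of these arrays. Of the 16545 probes well above background on all 4 tip arrays, 0.0484% rose and 0.139% fell by more than 1. These probes stand for all probes in the tip pairs, though AttB, CecC and Dro did not meet that rule. On slide B, tip replicate 2 minus replicate 1 ran from -3.47 to 3.30 with a median of -0.73, beside -0.85 over all probes. In that pair 5 of 10 genes were more than 1 apart, while 14.4% of all probes rose and 43.0% fell by more than 1. Such gaps were thus common on these 2 arrays and not particular to these genes.

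**Figure D4:**
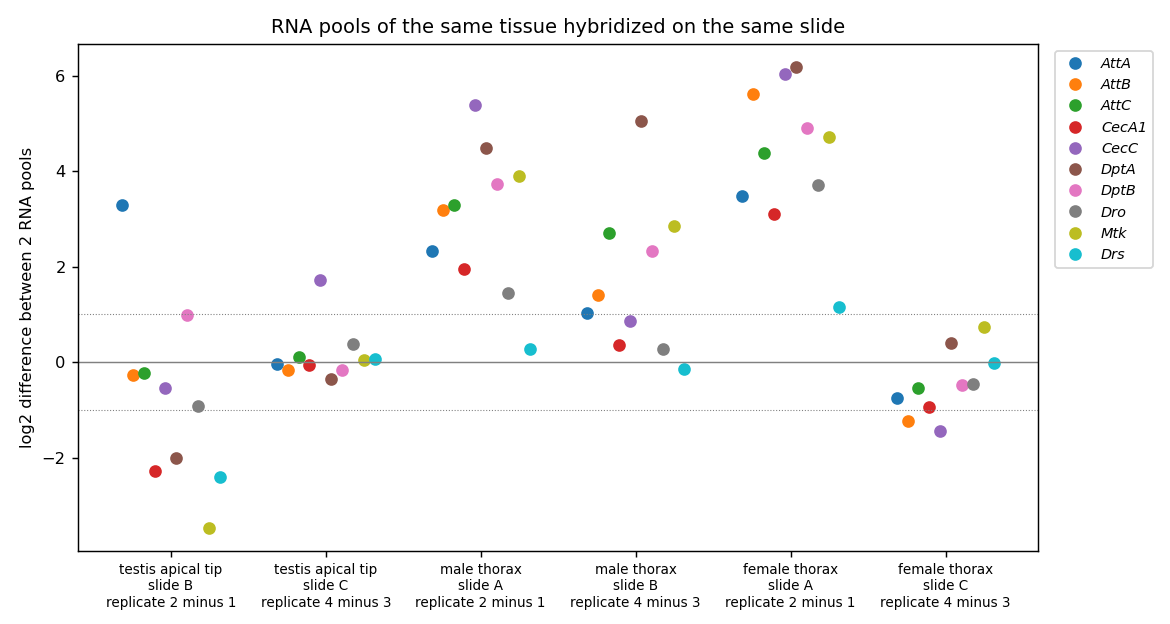
Log2 difference of each gene between 2 RNA pools of the same tissue hybridized on the same slide, with dotted lines at 1 and -1. All 10 genes are higher in replicate 2 than in replicate 1 of both thoraxes on slide A, while tip replicates 3 and 4 lie within 1 of each other for all genes but CecC and female replicates 3 and 4 for all but CecC and AttB.

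Most of the genes ranked the thorax pools alike. The mean scaled level over the 10 genes was -1.28, 1.72, -1.23 and 0.44 in male replicates 1 to 4 and -1.39, 2.94, 1.81 and 1.34 in female replicates 1 to 4. Female replicate 2 was the highest female pool for all 10 genes, and female replicate 1 the lowest for all but Drs. Over the 8 thorax arrays the Pearson r of 2 genes had a median of 0.906 over 45 pairs (0.137 to 0.988), and 0.907 once the mean of each sex was removed. Drs had a median r of 0.352 with the other 9 genes (0.137 to 0.661), and AttA with CecA1 reached 0.988. These arrays share slides and the same 8 pools, and the correlations are given as a description.

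Marker sums of tissues that make the peptides were set beside these means. The summed fat body level without yolk proteins was 7.63, 7.40, 7.73 and 7.28 in male replicates 1 to 4 and 7.66, 7.73, 8.25 and 8.02 in female replicates 1 to 4, so the 2 male pools with the highest peptide levels had the lowest sums, while the female pool with the lowest peptide level also had the lowest sum. The hemocyte sum was 3.04 to 3.34 in male and 3.39 to 3.79 in female thorax. The gut sum varied more, with 7.0, 6.70, 7.70 and 5.81 in male and 7.49, 7.84, 8.01 and 7.28 in female replicates 1 to 4. The part of pool makeup in the spread was not tested.

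Other genes followed the mean of the peptide genes across the 8 thorax pools. Among 13955 probes well above background on all of them, the highest r belonged to TrpA1 (0.985), a cation channel gene, Irc (0.979), an immune-regulated catalase, and Phk-3 (0.976), which encodes a pherokine. They were followed by CecA2 (0.964), the melanization protease gene Hayan (0.949), the thioester protein gene Tep2 (0.938), CG18477 (0.937) and the serpin gene Spn88Eb (0.930). TrpA1 read -4.72, -2.42, -5.20 and -3.57 in male and -4.80, -0.59, -2.08 and -2.66 in female replicates 1 to 4. Irc moved less, at 2.75, 3.40, 2.75 and 3.19 in male and 2.73, 3.57, 3.23 and 3.30 in female replicates. Both were lowest in the pools that were low for the peptides and highest in female replicate 2.

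In the testis tip the spread came mostly from 1 array. The median SD of the 10 genes over the 4 tips was 1.02, and 0.20 over the 3 tips other than replicate 1. That array was the highest tip for CecA1, DptA, Mtk, Drs, AttB and CecC and the lowest for AttA and DptB. On it 75.6% of the 16545 tested probes well above background on all 4 tips lay above their tip mean. Its summed marker level was 4.45 for germline, against 3.75 to 3.76 in the other tips, 1.12 for the somatic cells of the testis (-0.20 to -0.11), 1.52 for hemocytes (0.23 to 0.26) and 0.25 for flight muscle (-1.75 to -1.62). The gut sum was 3.18 (3.17 to 3.73 in the other tips) and the tracheal sum -5.74 (-5.73 to -5.03). The part of these shifts in its values was not tested. The 2 comparisons kept 7 lower calls without it, with CecA1 higher against male thorax only.

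Beyond the 10 genes, the immune genes of the array were described by lists. Over 6 lists with 58 tested genes, 45 were lower in tips than in male thorax and 6 were higher, and 45 were lower than in female thorax and 5 higher, beside the 47.2% and 47.4% of all probes that were lower. Without scaling it was 29 lower and 12 higher against male and 28 lower and 12 higher against female thorax. There 6097 of all 24878 probes were lower and 11980 higher against male thorax, and 5467 lower and 12816 higher against female thorax. Of the 58 genes, 8 reached the signal minimum in thorax only (psh, AttD, CecB, Drsl1, Drsl3, TotC, edin and GNBP3) and 1 in tips only (Anp), and the minimum itself favors a difference in these. The other 49 reached it in every tissue, and of these 38 were lower and 5 higher against male thorax and 37 lower and 4 higher against female thorax. In each comparison 22 genes had several tested probes, which gave the same call for 15 of them and opposite calls for 0.

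Further antimicrobial peptide genes mostly followed the pattern, with 8 of 10 tested lower in tips than in male thorax and 9 of 10 lower than in female thorax. Among all tested probes 47.2% and 47.4% were lower. The drosomycin-like gene Drsl4 averaged -3.87 ± 0.96 in tips, 6.14 ± 0.22 in male and 6.28 ± 0.15 in female thorax (SD, n = 4 each), a change of -10.01 (adjusted p = 1.77e-09) and -10.15 (adjusted p = 1.61e-09). Drsl3 changed by -9.80 and -10.06, Drsl1 by -8.51 and -8.64, and Drsl2 by -6.12 against female thorax. The only one that was higher in tips was Anp, which encodes andropin, a peptide known from the male reproductive tract. It read -0.17, -2.91, -2.16 and -2.45 in tips and was not well above background on any of the 8 thorax arrays. Tips were at least 29.7-fold higher than male thorax (adjusted p = 4.74e-07) and at least 23.4-fold higher than female thorax (adjusted p = 7.27e-07). The cecropin genes CecA2 and CecB, on 3R like CecA1, were lower, with -3.54 (adjusted p = 0.022) and -3.69 (adjusted p = 0.0276) against male thorax, calls that were lost without scaling and on quantile normalization.

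Other immune-induced secreted peptides, which include the Bomanins and Turandots, were lower in tips for 10 of 10 genes in both comparisons. The shares of all tested probes that were lower were 47.2% against male and 47.4% against female thorax. BomS1, a short Bomanin made under Toll control, changed by -9.65 ± 0.54 (SE, adjusted p = 1.97e-08) against male and -10.12 ± 0.54 (adjusted p = 1.35e-08) against female thorax. BomS2 changed by -8.21 against male thorax, and BomBc1 by -8.11 against male and -8.91 against female thorax. TotC, a stress-induced Turandot, changed by -9.15 against male and -12.71 against female thorax, and its tip signal was well above background on 1 of 4 arrays. TotA changed by -9.51 against female thorax.

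Receptors that sense microbes were lower in tips for 6 of 7 genes in both comparisons, beside 47.2% and 47.4% of all tested probes. GNBP3, which binds fungal glucan, was not well above background on any tip array, and tips were at least 242-fold lower than male and at least 248-fold lower than female thorax. GNBP2 changed by -5.53 against male and -5.84 against female thorax, PGRP-SD by -5.95 and -5.03, and PGRP-SA, a sensor upstream of Toll, by -4.68 against female thorax. The Imd receptor gene PGRP-LC changed by -4.14 against male thorax on its brightest probe, but its 5 probes disagreed and ran from -4.14 to 1.19, with the last not called. The exception was PGRP-LE, a peptidoglycan sensor that works inside cells, which read 3.14, 1.75, 1.81 and 1.75 in tips, against 0.44, 0.48, 0.68 and 0.49 in male and 0.22, 0.21, 0.48 and 0.47 in female thorax. It was higher in tips by 1.59 (adjusted p = 0.000573) and 1.77 (adjusted p = 0.000256), and the sign held in all 3 scalings.

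The signaling genes of the Toll and Imd pathways were counted beside all tested probes. Of these, 47.2% were lower and 29.3% higher against male thorax, and 47.4% and 28.8% against female thorax. Of 13 Toll pathway genes, 11 were lower in tips and 0 higher in both comparisons. Without scaling 6 were lower and 1 higher, where 6097 of 24878 probes were lower and 11980 higher against male thorax. The protease genes psh and SPE, which act upstream of the ligand Spätzle, changed by -8.79 and -8.24 against male thorax. The receptor gene Tl changed by -4.80 and the transcription factor gene Dif by -4.97, with adjusted p values of 1.34e-06 and 9.77e-09, though the second Dif probe gave 0.89 and was not called. Of 9 Imd pathway genes, 3 were higher and 3 lower than in male thorax, and 2 higher and 3 lower than in female thorax. These counts are not far from the shares over all probes. The adaptor gene imd was higher by 0.67 (adjusted p = 0.0175) against female thorax, and the kinase gene IKKbeta by 0.90 (adjusted p = 0.00146) against male thorax. Tab2, which encodes a partner of that pathway's Tak1 kinase, changed by -0.95 and -0.96, and read 1.40 and 1.69 without scaling, where it was called higher. Tak1, a kinase gene, changed by -6.35 (adjusted p = 9.8e-08), and Rel, which encodes Relish, changed by -1.99 (adjusted p = 2.07e-05). Rel read 0.35 without scaling (adjusted p = 0.404), so its direction rests on the scaling. There 7 of the 9 genes were called higher, beside 11980 of all 24878 probes against male thorax. Whether the lists differed from each other was not tested.

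**Figure D5:**
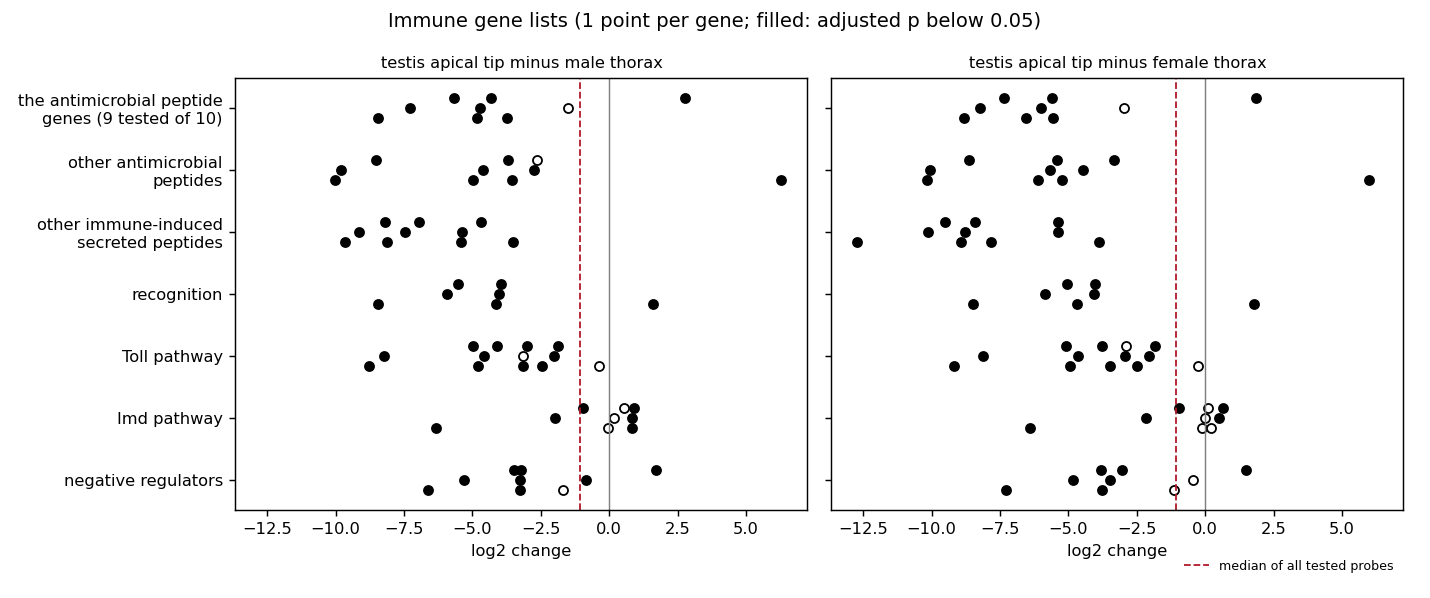
Log2 change of each tested gene in 7 lists, in testis apical tip minus male thorax and tip minus female thorax, 1 point per gene, filled where the adjusted p was below 0.05, with a dashed line at the median of all tested probes (-1.05 in both). Most points of the peptide, recognition and Toll lists lie left of the line, while 6 of 9 Imd genes against male thorax lie between -0.03 and 0.90.

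Negative regulators were lower in tips for 7 of 9 genes against male and 6 of 9 against female thorax. Among all tested probes 47.2% and 47.4% were lower. Without scaling 2 and 1 of these genes were lower and 2 and 2 higher, where 6097 and 5467 of all 24878 probes were lower and 11980 and 12816 higher. PGRP-SC2 was then no longer called against female thorax (adjusted p = 0.0782). PGRP-SC1a (adjusted p = 0.0875 and 0.0836) and PGRP-LB (0.356 and 0.264) lost their calls against male and against female thorax. PGRP-LF, a decoy receptor, changed by -6.63 and -7.30. PGRP-SC2, PGRP-SC1a and PGRP-LB, enzymes that cut peptidoglycan, changed by -5.31, -3.49 and -3.27 against male and -4.82, -3.81 and -3.77 against female thorax. casp, which encodes Caspar, was higher, with 1.71 and 1.50. No gene of the 6 lists was called between male and female thorax by limma. There 7 of 58 had an unadjusted p below 0.05, beside 1896 of all 24878 tested probes.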

How the data were processed

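Total RNA was labeled with Cy3 and hybridized to 1-color arrays, 4 for each of 3 tissues. The deposited spot intensities were made with Agilent's Feature Extraction software (version 9.1 in the submitters' processing notes, a later one in the file headers), which took off the local background and set low spots to a small positive value. Arrays were not scaled to each other. A second table that the authors deposited gives log2 means, 1 per tissue, and served as an alternative without a test. Its column medians are 12.1 for testis apical tip, 10.0 for male and 9.83 for female thorax, and it is neither centred nor scaled.

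Controls and outlier spots were left out (201 to 389 of 43603 spots on tip arrays, 112 to 199 on male and 128 to 186 on female thorax arrays). No spot was saturated. Spots of a probe were averaged, taken to log2, and the 75th percentile of the array was subtracted. Tissues were compared with limma over all 12 arrays, with Benjamini-Hochberg adjusted p below 0.05 as the call, and a gene was represented by its brightest probe. A probe was well above background on an array where at least 50% of its spots were. Where a probe was below background in all arrays of a tissue, the fold is a bound, set against the higher of its own signal and the lowest signal of a detected probe on each array. For Dro it is not a firm bound, since some thorax arrays were also below background. The labels give 4 replicate arrays per tissue and the methods call the RNA pools independent. Each p-value sets a change against the spread between pools within tissues, estimated for a probe over all 12 arrays together. Tip replicate 1 thus also enters the test between the thoraxes, and the reported fit has no term for slide. The number of arrays limits the precision.

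Replicate numbers follow the order of the deposited arrays and only name them. All 10 genes were named with every probe. The lists cover other antimicrobial peptides, other immune-induced secreted peptides, recognition, the Imd pathway, the Toll pathway and negative regulators, with values for up to 4 called genes of the largest change in each list and comparison, and markers of fat body, hemocyte, gut, trachea, flight muscle, germline and somatic cells of the testis. Anp, CecA2, CecB, PGRP-LE and casp, which were also given by value, were picked after their values were seen. The 8 genes closest to the peptide genes were ranked by Pearson r over the thorax arrays. Members and lists were chosen with earlier results of these data known. Genes were matched by locus tag to a later annotation release than that of the array, and nos, BaraA1 and Dso2 found no probe. Alternatives covered the scaling, the filter, the background correction (normexp, offset 50), slide, array weights, each array left out and every probe of a gene. The limma step was tested on simulated data. Models were fitted in R 4.3.3 (limma 3.58.1), and tables and plots were made in Python 3.11.15 (numpy 2.4.6, pandas 2.3.3, matplotlib 3.10.9).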

Additional observations from a re-analysis of the deposited data

Results flagged for a closer look

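Among 113 groups of 4 arrays for the peptide and pathway genes, 22 held an array whose gap to its nearest neighbor exceeded Dixon's critical share of the range, where chance gives about 1 in 20. Tip replicate 1 accounted for 17 of them. Of the peptide genes, it stood high for CecA1 (2.42), DptA (0.88) and Mtk (-2.20) and low for DptB (-5.22), all as scaled log2 levels. It also stood high for Tl (-2.93), Tak1 (-2.80), PGRP-LC (-2.22), PGRP-SA (-1.95), TotA (-2.32), PGRP-LF (-4.05) and GNBP2 (-3.61), and low for PGRP-SC1a (-3.22), Drsl4 (-5.31), Drsl2 (-7.13), IKKbeta (-1.51), PGRP-SC2 (-7.11) and PGRP-SD (-8.08).

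In male thorax, replicate 2 stood high for TotA (4.97) and TotC (4.42), as it was for most of the peptide genes, and replicate 4 stood apart for GNBP2 (1.44) and psh (1.57). In female thorax, replicate 4 stood low for Anp (-8.73), which was not well above background there.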

How the results depend on the processing

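No paired analysis was possible because the labels number the arrays of a tissue 1 to 4 only as a set and tie no number to an array. Slide was used as the block instead. Of the counts of called genes and the spread, 138 values under alternatives stayed within 1.5 times the reported one and 3 did not. Without scaling, 5 peptide genes were called between tips and male thorax (1 higher, 4 lower) in place of 8. Of all 24878 probes, 11980 were then higher and 6097 lower. Between male and female thorax, 7 pathway genes were called with array weights (Myd88 higher, Drsl2, Drsl5, Drsl6, Fadd, IKKbeta and TotC lower), in place of 0. Without tip replicate 1 it was 2 (Fadd -0.73, adjusted p = 0.0453, and TotC -3.56, adjusted p = 0.0215). Among all tested probes 11.3% were called with array weights and 5.2% without tip replicate 1, in place of 0.523%. Leaving out each array gave 7 to 8 peptide genes called against male and against female thorax and 0 between thoraxes. It gave 48 to 52, 48 to 54 and 0 to 2 pathway genes in the same 3 comparisons, and a median spread of 1.35 to 2.12.

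The sign turned for DptA in tips against male thorax with no scaling (0.82) and, by the same unscaled means, in the authors' table. Between male and female thorax it turned for AttB within slide A (0.012) and with array weights (0.36), for Mtk within slide A (0.040) and with array weights (0.47), and for Drs on quantile normalization (0.046) and, where leaving out each array gave -0.55 to 0.046, without female replicate 2 (0.046). Without scaling CecC was also lost against male (-1.40, adjusted p = 0.345) and female thorax (-2.94, adjusted p = 0.0576), and with quantile normalization against male thorax (-2.38, adjusted p = 0.185). With no filter Dro was tested and called lower in both tip comparisons. Of all 32162 probes, 14823 were then lower against male and 16436 against female thorax, in place of 11747 and 11796 of 24878. Dro was not well above background on any tip array. Its mean log2 signal before scaling was 4.66 in tips and 4.41 in male thorax. The cause of the Dro calls was not tested.

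Calls between the thoraxes over all probes were 130 in the reported fit, 2804 with array weights, 1305 without tip replicate 1, 294 with the 8 thorax arrays alone and 59 within slide A. Signal near background limits Dro, CecC and AttB in tips.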

Other observations

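The Turandot genes TotA, TotC and TotM, which encode secreted peptides of the stress response, gave negative values for male minus female thorax that did not pass the test. TotC read 1.32, 4.42, 1.58 and 1.27 in male thorax, against 5.79, 6.59, 5.59 and 4.86 in female thorax, and the sexes did not overlap (-3.56 ± 0.95, SE, adjusted p = 0.248). TotA gave -2.54 (adjusted p = 0.509) and TotM -2.42 (adjusted p = 0.551). In each sex the highest pool of all 3 genes was replicate 2, which was also the highest pool for most of the antimicrobial peptide genes. Unlike those genes, the Turandots did not separate female replicate 1 from replicates 3 and 4, with TotM at 4.20 in replicate 1 against 4.13 and 3.37 in replicates 3 and 4.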
